A study of Mus musculus with 2 samples.

Results

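Complement is a cascade of plasma proteins that marks surfaces with fragments of C3 and C4 and ends in the membrane attack complex, a pore that kills cells. Host cells are spared by inhibitors, and the genes of 6 of them were followed here through the cells of the mouse brain: Cd55, Cd46 and Cr1l, whose membrane proteins dismantle or inactivate the enzymes that cleave C3; Cd59a, whose membrane protein stops the attack complex from assembling; and the secreted inhibitors Serping1, which blocks the C1 proteases, and Clu, which encodes clusterin and binds the attack complex in fluid. In mice Cr1l encodes Crry, a rodent regulator of C3, and Cd46 is best known from the testis. In neuromyelitis optica spectrum disorder, antibodies bind aquaporin-4 on astrocyte end-feet and recruit complement there, so the inhibitors that astrocytes carry bear on the disease. The genes were chosen by symbol, and all 6 were found among the 32285 genes of the files.

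Brain cells of C57BL mice aged 8 to 13 weeks were taken 24 h into a model of the disease and split into a CD45-negative subset and a CD45-positive subset, CD45 being the surface antigen of leukocytes and, more weakly, of microglia. Each subset was 1 library of 3' single-cell RNA sequencing, both from animals in the model, so no brain without the model serves as a comparison here. How many mice each library pools, how the model was induced and how cells were selected by CD45 cannot be read from the labels. With 1 library in each subset there is no replicate error, no test was made, and every interval below covers counting error only.

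The CD45-negative library kept 12817 of 14524 barcodes with 82577080 counted transcript molecules (UMIs), and the CD45-positive library kept 8432 of 8662 with 73960481. Median depth was 5412 UMIs in CD45-negative cells and 6088.5 in CD45-positive cells, and 27 barcodes occurred in both libraries. Cells were clustered without the 6 genes or other complement genes among the genes used, and clusters were named "-like" from marker lists. In the CD45-negative library 5223 cells (40.8%) were astrocyte-like, 2110 oligodendrocyte-like, 1429 endothelial-like, 1387 pericyte-like, 638 neuroblast-like, 237 neural precursor-like, 220 choroid plexus epithelial-like, 89 fibroblast-like and 85 microglia-like, and 1254 (9.78%) stayed unnamed. The CD45-positive library held 3035 microglia-like, 2556 T cell-like, 898 monocyte-like, 257 NK cell-like, 114 neutrophil-like, 69 astrocyte-like and 53 dendritic-like cells. Levels are given as CPM, the UMIs of a gene per 1000000 UMIs of the class or library. The 10 astrocyte markers summed to 25172 CPM in astrocyte-like cells and 1834 CPM in the other named CD45-negative cells, and Aqp4 stood at 714 against 21.9 CPM. Ptprc, which encodes CD45, was at 7.90 CPM in CD45-negative cells against 612 CPM in CD45-positive cells. The microglia-like cells of the CD45-negative library had a median of only 1610 UMIs.

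All positions are on mm10. Cd55 lies at chr1:130439027-130462744 on the minus strand, 16018 bp from its near copy Cd55b and overlapped by the antisense gene Gm16083. Cd46 at chr1:195036826-195092249 and Cr1l at chr1:195097382-195131586 are neighbours on the minus strand, 5133 bp apart, and Cd46 is overlapped on the other strand by genes that include A330023F24Rik, Mir29b-2 and Mir29c. Cd59a lies at chr2:104095801-104115354 on the plus strand, 4614 bp from its near copy Cd59b, and Serping1 at chr2:84765387-84775444 on the minus strand. Clu lies at chr14:65968483-65981547 on the plus strand. Cd55b had 0 UMIs in every class of at least 50 cells, and Cd59b reached 10.0 CPM in choroid plexus epithelial-like cells, 1.87 CPM in oligodendrocyte-like and 0.552 CPM in astrocyte-like cells. Reads that fit both copies of a pair cannot be assigned, so some of the Cd55 and Cd59a signal is uncertain.

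The upstream sequences of Cd59a and Cd46 are shown because these were the membrane inhibitors lowest and highest in astrocyte-like cells relative to other cells, as set out below. Each line gives the 250 bases before the RefSeq transcript start (GRCm38.p6), 5′ to 3′ on the gene's strand, with CG dinucleotides in capitals. The windows are chr2:104095551-104095800 for Cd59a and chr1:195092249-195092498 for Cd46.
Cd59a: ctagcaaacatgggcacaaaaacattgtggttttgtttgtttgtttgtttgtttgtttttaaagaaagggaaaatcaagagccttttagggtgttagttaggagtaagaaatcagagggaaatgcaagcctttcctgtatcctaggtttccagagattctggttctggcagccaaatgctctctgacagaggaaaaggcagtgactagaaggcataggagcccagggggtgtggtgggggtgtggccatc
Cd46: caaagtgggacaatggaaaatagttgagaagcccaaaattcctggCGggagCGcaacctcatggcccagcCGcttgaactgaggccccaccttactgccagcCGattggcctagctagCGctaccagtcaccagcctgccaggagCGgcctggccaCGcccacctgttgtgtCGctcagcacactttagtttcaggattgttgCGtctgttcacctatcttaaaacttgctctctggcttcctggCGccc
The Cd59a window held 0 CG, as did 7.87% of 32851 such windows of 27025 genes, and the Cd46 window held 10, a number reached or passed by 37.8% of windows. CG reads the same on both strands, the median window had 6, and the windows of Cd55 and Cr1l held 8 and 5. The counts describe the sequence only.

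The inhibitors differed in which CD45-negative classes held them most, and Cr1l was found in every class. Astrocyte-like cells led all other named CD45-negative classes in Clu and ranked highest, without standing apart from fibroblast-like cells, in Cd46. They were low in Cd59a and Cd55, as were several other classes, intermediate in Cr1l and low in Serping1 beside the fibroblast-like and pericyte-like cells. Set against all 6340 other named CD45-negative cells, 2 of the 6 genes were at least 2-fold higher in astrocyte-like cells (Clu and Cd46; 18.3% of the 17031 genes measured were) and 2 were at least 2-fold lower (Cd55 and Cd59a; 30.5% of genes were). Their median log2 ratio was -0.49, against -0.25 over all genes measured.

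**Figure D1:**
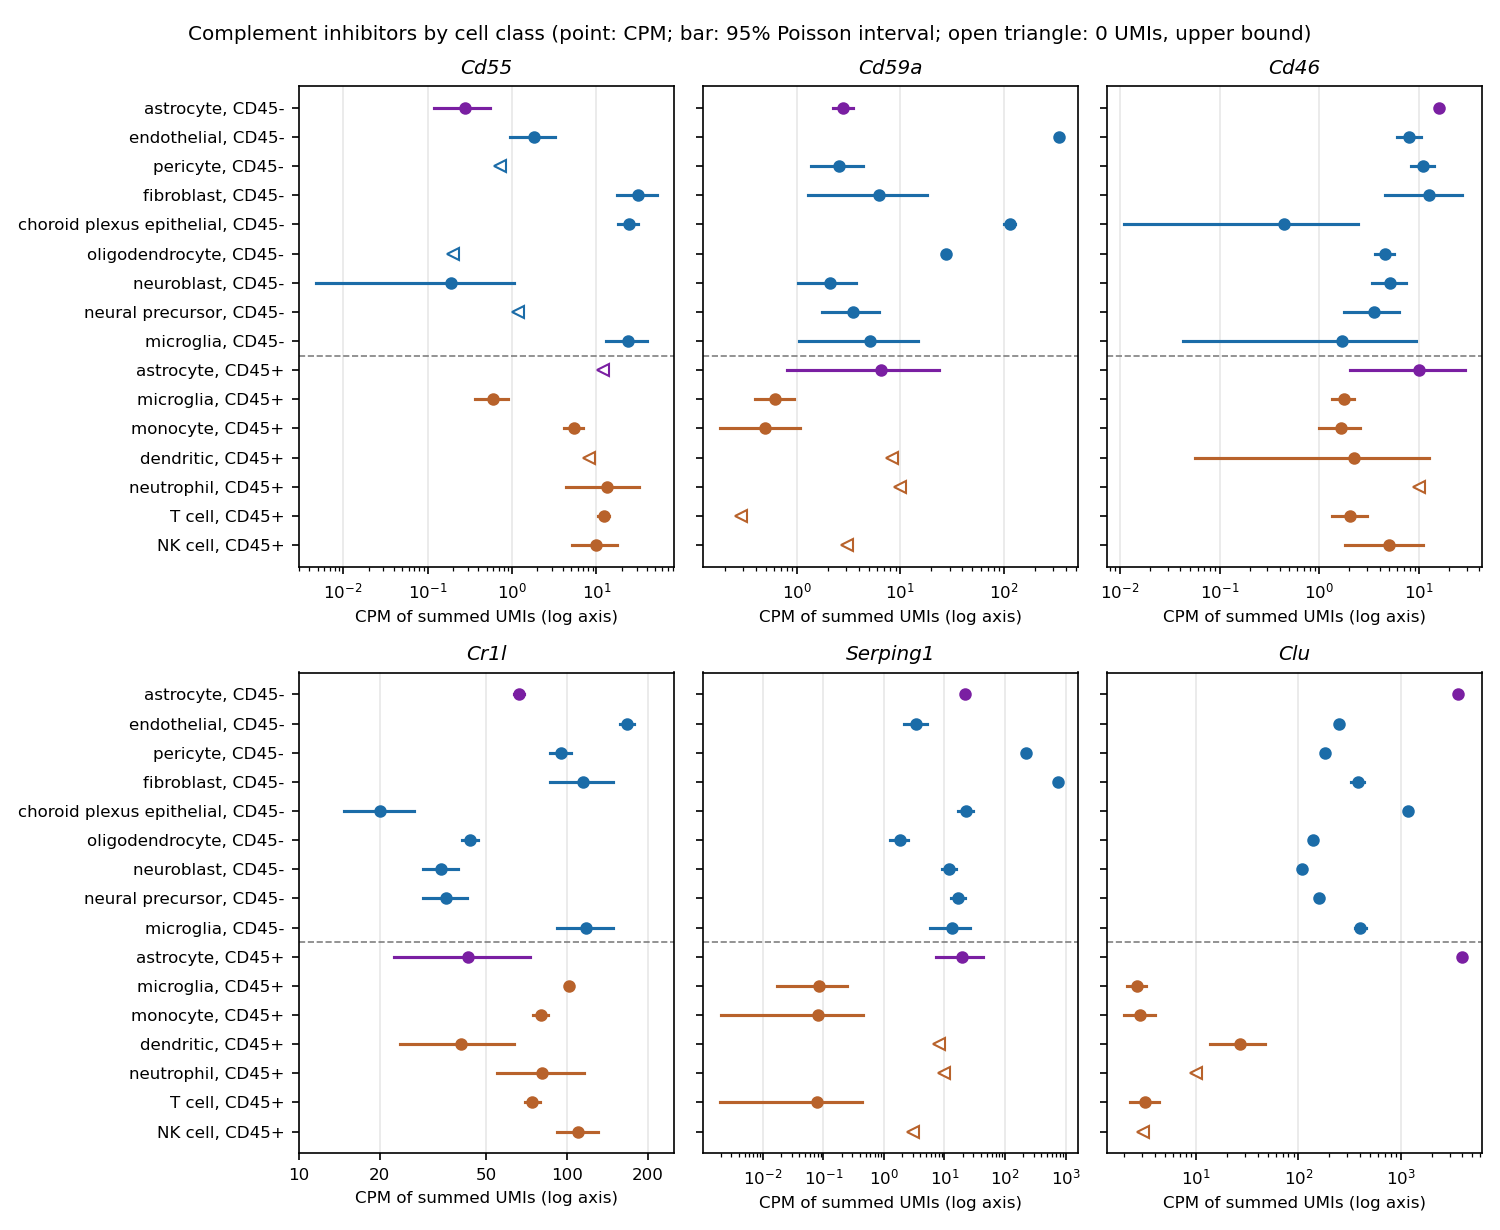
Level of each inhibitor in CPM of summed UMIs (log axis, range differs between panels) in cell classes of at least 50 cells, CD45-negative above the dashed line and CD45-positive under it, astrocyte-like cells in purple. Points are CPM, bars the 95% Poisson interval and open triangles the upper bound of a class with 0 UMIs; Clu was at 3613 CPM and Cd59a at 2.80 CPM in CD45-negative astrocyte-like cells, and Cd59a at 344 CPM in endothelial-like cells.

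Cd59a, the inhibitor of the attack complex, had its highest levels in endothelial-like, choroid plexus epithelial-like and oligodendrocyte-like cells. Astrocyte-like cells held 81 Cd59a UMIs, or 2.80 CPM (95% interval 2.22 to 3.48), against 71.3 CPM in the other named CD45-negative cells, 25.5-fold lower (20.5 to 32.2). Endothelial-like cells, which line the vessels, were at 344 CPM (329 to 358) and held 71.6% of the gene's UMIs in these classes. Choroid plexus epithelial-like cells, which make cerebrospinal fluid, were at 115 CPM and oligodendrocyte-like cells, which make myelin, at 27.8 CPM, and each of these 3 levels stood apart from the next beyond counting error. The remaining classes lay between 2.07 CPM (neuroblast-like) and 6.24 CPM (fibroblast-like, 3 UMIs), and the astrocyte-like level did not stand apart from its neighbours in this order, the neural precursor-like cells at 3.50 CPM and the pericyte-like cells at 2.57 CPM. The astrocyte-like level was 123-fold lower than the endothelial-like one (98.4 to 155).

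With each cell thinned to 1000 UMIs, 0.298% of astrocyte-like cells held a Cd59a UMI (0.167 to 0.491), against 27.6% of endothelial-like, 12.7% of choroid plexus epithelial-like and 2.26% of oligodendrocyte-like cells. For comparison, T cell-like cells of the CD45-positive library had 0 UMIs among 2207 thinned cells (upper bound 0.167%), with a median depth of 4734 UMIs before thinning beside 5234 in astrocyte-like cells. Free RNA can add to such low levels: Cldn5, a tight junction gene of endothelium, stood at 16.1 CPM in astrocyte-like and 5040 CPM in endothelial-like cells, and Cd59a at that same proportion would come to 1.10 CPM, of 2.80 CPM measured. The part of free RNA in the astrocyte-like level was not tested.

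Within the oligodendrocyte-like cells Cd59a was uneven. The cluster led by Grb14, Mog and Mag was at 30.6 CPM and that led by Tmem132b and Kndc1 at 8.95 CPM, 3.42-fold apart (2.21 to 5.57), with median depths of 10343 and 3142.5 UMIs. An unnamed cluster of 684 cells with oligodendrocyte markers, led by Klk9, Btc and Cgref1, was at 6.75 CPM with a median of 11694 UMIs, and the part of depth in these levels was not tested. In the choroid plexus epithelium the cluster led by Mmp3, Mmp12 and Cxcl5, the first a matrix protease and the last a neutrophil chemokine, was at 183 CPM and that led by 2900040C04Rik and Calml4 at 85.2 CPM (2.14-fold, 1.65 to 2.79). That cluster was also higher in Clu (1631 against 831 CPM), Cr1l (34.6 against 9.93 CPM) and Serping1 (32.0 against 13.2 CPM), while Cd55 did not stand apart (21.3 against 22.3 CPM).

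Cd55, which speeds the decay of C3-cleaving enzymes, was near the limit of detection in astrocyte-like cells and in most brain cells. Astrocyte-like cells held 8 Cd55 UMIs, or 0.276 CPM (0.119 to 0.544), against 2.82 CPM in the other named CD45-negative cells, 10.2-fold lower (5.01 to 24.2). Of the 121 UMIs of these other cells, 55 were choroid plexus epithelial-like, 24 ependymal-like, 15 fibroblast-like and 14 from 1 microglia-like cell. The fold therefore rests mainly on small classes. The astrocyte-like level did not lie below that of oligodendrocyte-like, pericyte-like, neural precursor-like or neuroblast-like cells. The gene was at 31.2 CPM in fibroblast-like, 24.004 CPM in choroid plexus epithelial-like and 1.84 CPM in endothelial-like cells. Without thinning, 13.5% of fibroblast-like and 19.1% of choroid plexus epithelial-like cells held a UMI, at median depths of 4106 and 9289 UMIs. These shares are not at equal depth. Oligodendrocyte-like, pericyte-like and neural precursor-like cells had 0 UMIs, which limits them to 0.203, 0.729 and 1.17 CPM, and neuroblast-like cells had 1. The 23.6 CPM of the CD45-negative microglia-like cells came from 14 UMIs in 1 of 85 cells. A group of 44 ependymal-like cells, too few for the ordering, was at 73.2 CPM with a UMI in 34.1% of cells, also without thinning.

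Among CD45-positive cells Cd55 was at 13.5 CPM in neutrophil-like (5 UMIs), 12.1 CPM in T cell-like, 9.94 CPM in NK cell-like and 5.40 CPM in monocyte-like cells, and none stood apart from the next in this order. Not being neighbours, the T cell-like and monocyte-like cells had separate intervals, 10.3 to 14.2 and 4.17 to 6.86 CPM. Microglia-like cells followed at 0.591 CPM, 9.13-fold under the monocyte-like cells (5.52 to 15.7). The astrocyte-like cells of the CD45-positive library had 0 Cd55 UMIs, a bound of 12.1 CPM.

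Cd46, a cofactor for cutting C3b and C4b, had its highest level in astrocyte-like cells. It held 454 UMIs there, or 15.7 CPM (14.3 to 17.2), against 5.68 CPM in the other named CD45-negative cells, 2.76-fold higher (2.36 to 3.24), and 65.9% of its UMIs in these classes were astrocyte-like. The astrocyte-like level was 1.44-fold over pericyte-like (1.09 to 1.94), 1.97-fold over endothelial-like (1.47 to 2.68) and 3.48-fold over oligodendrocyte-like cells (2.74 to 4.46), and it did not stand apart from the 12.5 CPM of fibroblast-like cells (6 UMIs). Choroid plexus epithelial-like cells held 1 UMI, or 0.436 CPM. When single cells were averaged so that deep cells did not weigh more, the log2 ratio was 0.87 in place of 1.46, below a 2-fold difference. In the CD45-positive library astrocyte-like cells were at 9.85 CPM (3 UMIs) and the other classes at 4.97 CPM or less, with microglia-like cells at 1.74 CPM.

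Cr1l, the gene of Crry, was the most even of the 6 genes across CD45-negative classes. Astrocyte-like cells were at 66.3 CPM (63.4 to 69.3) and the other named CD45-negative cells at 67.8 CPM, a ratio of 0.978 (0.923 to 1.04), whose side of 1 changed with the grouping of cells. Endothelial-like cells led with 168 CPM (158 to 178), and astrocyte-like cells were 2.54-fold lower (2.35 to 2.73). Next in order were the CD45-negative microglia-like cells at 118 CPM, fibroblast-like cells at 114 CPM and pericyte-like cells at 94.7 CPM. Astrocyte-like cells ranked after these and stood apart from pericyte-like cells above and from oligodendrocyte-like cells below, at 43.5 CPM. Choroid plexus epithelial-like cells were lowest with 20.1 CPM. The CD45-positive classes spanned 40.2 CPM (dendritic-like) to 110 CPM (NK cell-like). Microglia-like cells, the class there with the most UMIs of all genes (35547209), were at 102 CPM and held 63.0% of the gene's UMIs. That share reflects the size of the class as well as its level.

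Serping1, the C1 inhibitor, was concentrated in fibroblast-like and pericyte-like cells. Fibroblast-like cells were at 751 CPM (676 to 833) and pericyte-like cells at 226 CPM (213 to 240), and an unnamed cluster of 174 cells with pericyte markers, led by Il6, Il11 and Ccl11, was at 429 CPM. Astrocyte-like cells were at 21.7 CPM (20.02 to 23.4), against 41.6 CPM in the other named CD45-negative cells, 1.92-fold lower (1.75 to 2.11). This log2 ratio of -0.94 passed -1 in 5 alternatives, at -1.05 at the coarser Leiden resolution of 0.5, -1.06 with no cell filter, -1.14 with a stricter cell filter, -1.24 as a mean over single cells and -1.55 without the astrocyte-like cluster led by Ptx3. Astrocyte-like cells did not stand apart from their neighbours in the order, the choroid plexus epithelial-like cells (22.7 CPM) and the neural precursor-like cells (16.8 CPM). The 13.5 CPM of the CD45-negative microglia-like cells came from 8 UMIs in 1 cell. Endothelial-like cells were at 3.37 CPM and oligodendrocyte-like cells at 1.81 CPM, and the astrocyte-like level was 6.43-fold (4.21 to 10.3) and 11.96-fold (8.43 to 17.5) over these. In CD45-positive cells the 69 astrocyte-like cells were at 19.7 CPM (6 UMIs) and other classes near 0: microglia-like, monocyte-like and T cell-like cells held 3, 1 and 1 UMIs.

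Clu had by far the most UMIs of the 6 genes. Astrocyte-like cells held 104645 Clu UMIs, 91.8% of those in the CD45-negative classes, or 3613 CPM (3591 to 3635), against 234 CPM in the other named cells, 15.4-fold higher (15.1 to 15.8). The 69 astrocyte-like cells of the CD45-positive library were at 4010 CPM (3789 to 4242). Choroid plexus epithelial-like cells followed with 1183 CPM, and a group of 44 ependymal-like cells was at 1722 CPM, with Aqp4 at 466 CPM. The other classes of the CD45-negative library lay between 110 CPM (neuroblast-like) and 404 CPM (microglia-like). With called doublets kept, the log2 ratio of 3.95 came to 3.10.

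Low levels of Clu outside astrocytes and choroid plexus cannot be read as expression from these values alone. The 20 T cell-like cells of the CD45-negative library held 17 Clu UMIs, or 127 CPM, while the T cell-like cells of the CD45-positive library were at 3.19 CPM. Aqp4 stood at 13.7 to 54.1 CPM in the CD45-negative classes other than astrocyte-like cells. At the proportion of 5.06 Clu UMIs per Aqp4 UMI found in astrocyte-like cells, these Aqp4 levels would bring 46.9% of the Clu level in endothelial-like, 49.8% in pericyte-like, 50.1% in neural precursor-like, 59.0% in microglia-like, 59.2% in oligodendrocyte-like, 63.4% in neuroblast-like and 71.9% in fibroblast-like cells, but 9.52% in choroid plexus epithelial-like cells. The same reckoning gave at most 9.98% of Cd46 in the endothelial-like, pericyte-like, fibroblast-like, oligodendrocyte-like, neuroblast-like and neural precursor-like cells. It gave 61.5% in the CD45-negative microglia-like and 112% in the choroid plexus epithelial-like cells, each of which held 1 Cd46 UMI. The part of free astrocyte RNA in these levels was not tested.

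**Figure D2:**
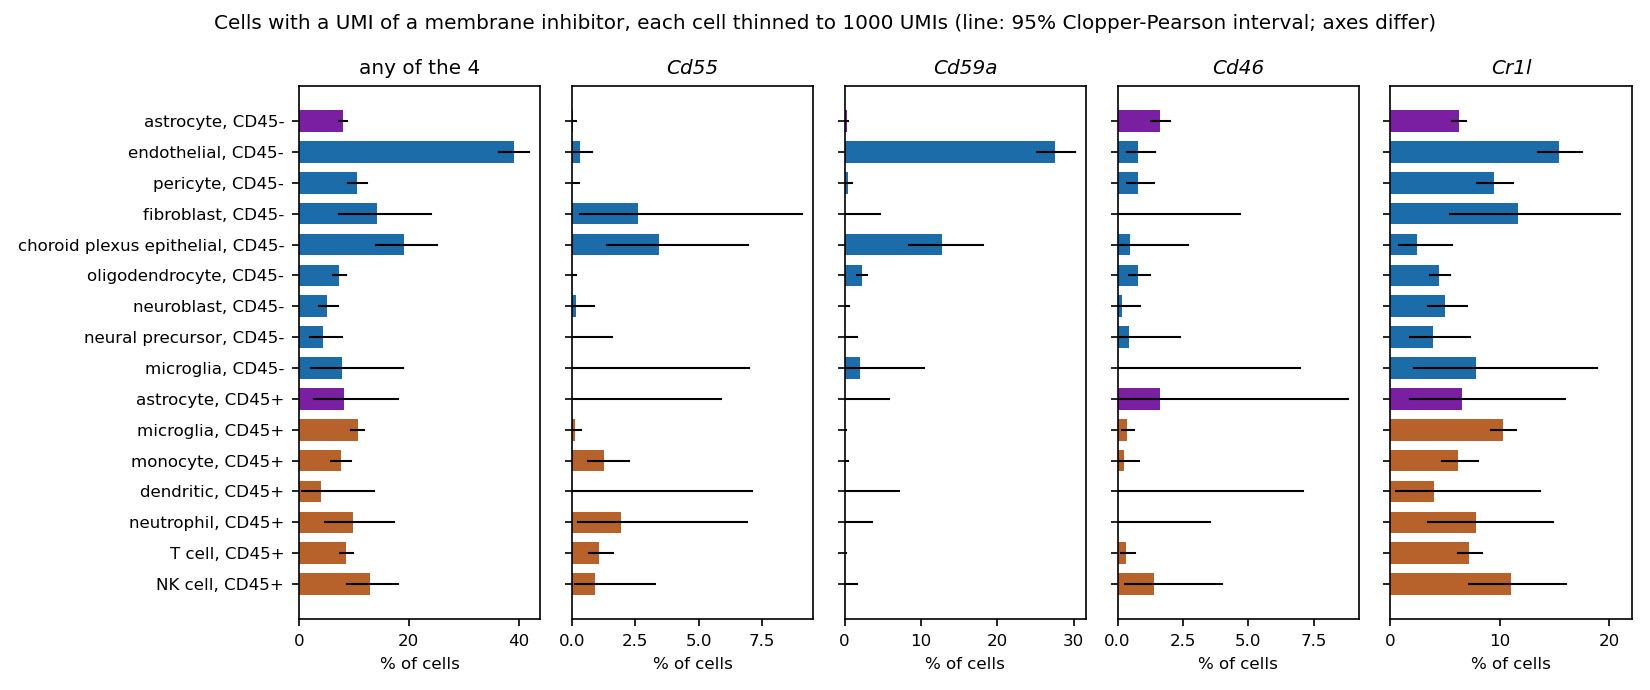
Percent of cells of each class with at least 1 UMI of any membrane inhibitor (left panel) and of each alone, every cell thinned to 1000 UMIs; lines are 95% Clopper-Pearson intervals and the axes differ. Any membrane inhibitor was seen in 8.07% of CD45-negative astrocyte-like cells and 39.1% of endothelial-like cells.

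Counted over cells, few astrocyte-like cells showed a membrane inhibitor at equal depth. With each cell thinned to 1000 UMIs, which left out 190 shallower astrocyte-like cells, 8.07% (7.33 to 8.85) held a UMI of Cd55, Cd59a, Cd46 or Cr1l, and 0.159% held at least 2 of these genes. The share was 39.1% (36.4 to 41.9) in endothelial-like, 19.1% in choroid plexus epithelial-like, 14.3% in fibroblast-like, 10.6% in pericyte-like, 7.29% in oligodendrocyte-like, 5.18% in neuroblast-like and 4.33% in neural precursor-like cells. In the CD45-positive library it was 12.9% in NK cell-like, 10.7% in microglia-like, 9.804% in neutrophil-like and 8.56% in T cell-like cells. The share was under the astrocyte-like one in monocyte-like (7.604%) and dendritic-like cells (4%) of that library. The same held for the CD45-negative microglia-like cells (7.84%). The intervals of these last 3 classes included the astrocyte-like share. Most of the astrocyte-like share was Cr1l, at 6.24%, with Cd46 at 1.63%, Cd59a at 0.298% and Cd55 at 0.0596%. The share depends on depth, reaching 14.9% at 2000 UMIs and 32.9% without thinning, so it states detection and not the fraction of cells that make an inhibitor. With the secreted inhibitors added, 83.4% of thinned astrocyte-like cells held a UMI of any of the 6 genes, since Clu alone was seen in 81.6%.

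The astrocyte-like cells formed 5 clusters, and the inhibitors differed between them. The cluster led by Ptx3, Tgm1 and F830016B08Rik held 557 cells and had the most Gfap, a gene of reactive astrocytes, at 1693 CPM; the others were led by Hapln1 (2047 cells), Agt (1276), B230323A14Rik (707) and Aldoc, Mt3 and S100b (636 cells with a median of 1667.5 UMIs). Serping1 was at 83.99 CPM (74.1 to 94.8) in the Ptx3-led cluster, 5.92-fold over the other astrocyte-like cells (5.03 to 6.95), whose clusters spanned 5.54 to 25.8 CPM. C3 was higher in the Ptx3-led cluster as well, though low, at 4.50 CPM from 14 UMIs (5.82-fold, 2.72 to 12.1), while C4b was lower, at 154 CPM (0.591-fold, 0.538 to 0.649).

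Clu lay between 952 CPM in the B230323A14Rik-led cluster and 6066 CPM in the Aldoc-led cluster, with 5184 CPM in the Ptx3-led cluster. Cd46 had the opposite extremes, at 24.6 CPM in the B230323A14Rik-led and 0.759 CPM (1 UMI) in the Aldoc-led cluster, and stood between 13.2 and 17.4 CPM in the rest. Cr1l varied least, from 41.8 CPM (Aldoc-led) and 44.7 CPM (Ptx3-led) to 74.0 CPM (Agt-led). Cd59a stayed between 1.04 and 7.59 CPM in every astrocyte-like cluster, under the oligodendrocyte-like level of 27.8 CPM. Of the 8 Cd55 UMIs, 4 were in the Hapln1-led and 4 in the Aldoc-led cluster, whose low depth goes with its levels; the part of depth was not tested. The share of thinned cells with a membrane inhibitor was 9.33% in the Agt-led, 8.69% in the Hapln1-led, 7.97% in the B230323A14Rik-led, 5.55% in the Ptx3-led and 5.02% in the Aldoc-led cluster.

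**Figure D3:**
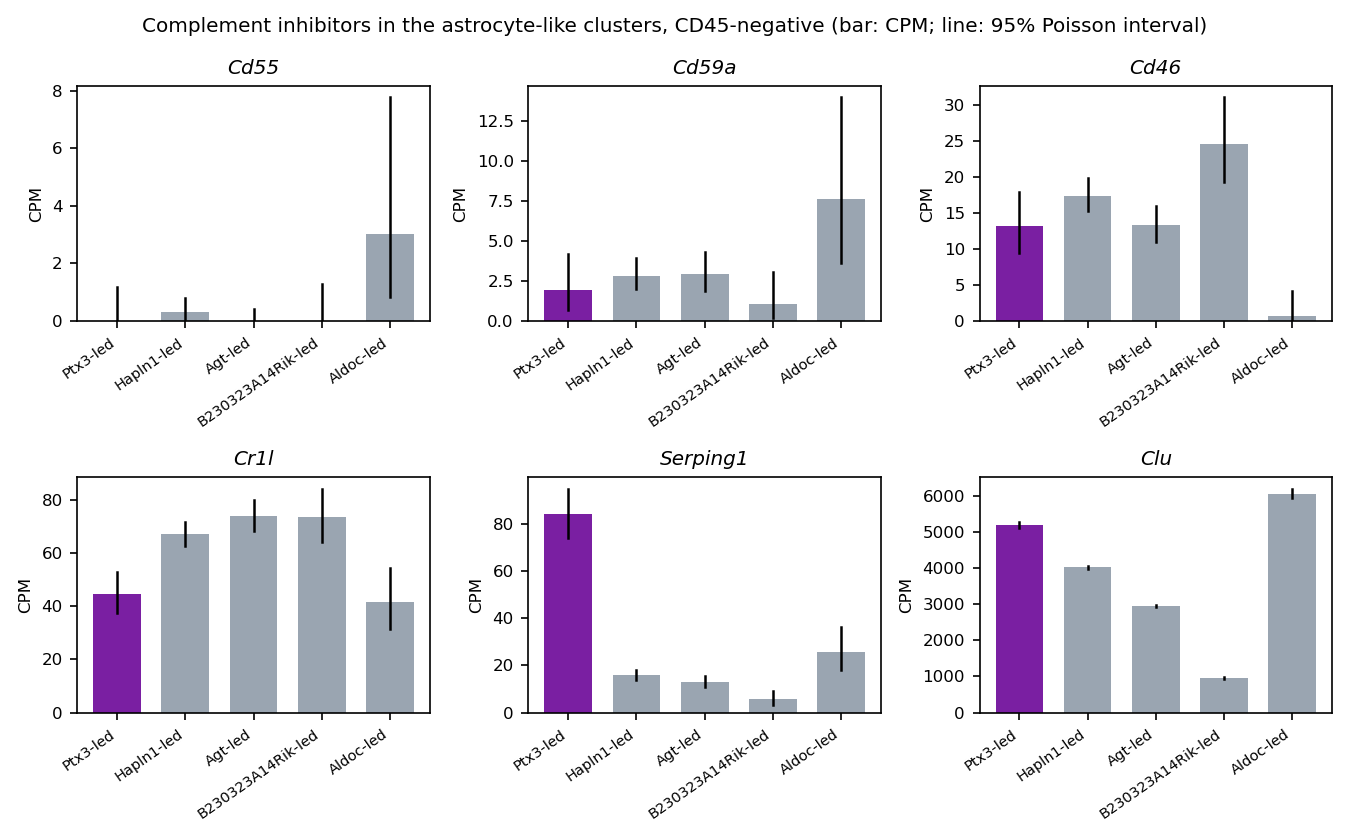
CPM of each inhibitor in the 5 astrocyte-like clusters of the CD45-negative library, named by their leading gene; bars are CPM, lines the 95% Poisson interval, and the axes differ. Serping1 was at 83.99 CPM in the Ptx3-led cluster (purple) and Clu at 952 CPM in the B230323A14Rik-led cluster.

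Astrocyte-like cells with an Aqp4 transcript, the antigen of the disease, were compared with those without one after thinning, 2321 with and 2712 without. A Serping1 UMI was seen in 2.67% of cells with Aqp4 (2.05 to 3.41) and 1.51% of cells without (1.09 to 2.05), and a Clu UMI in 85.5% and 78.3% of these. Cr1l was seen in 6.98% of cells with Aqp4 and 5.605% of cells without, Cd46 in 1.68% and 1.59%, Cd59a in 0.345% and 0.258%, and any membrane inhibitor in 8.83% (7.71 to 10.1) and 7.41% (6.45 to 8.46), with overlapping intervals in each of these 4. Overlap does not show equal shares. Detection of Aqp4 also differed between the clusters, from 40.2% of thinned cells in the Aldoc-led to 55.2% in the Agt-led cluster. Before thinning the cells with Aqp4 had a median of 5813 UMIs and those without 4993.5, and detection of Aqp4 depends on the draw, so the groups are not cells with and without the protein. Pairs of inhibitors in the same thinned cell were counted against the product of their shares, with 5.07% of cells seen and 5.09% by the product for Clu with Cr1l, 1.71% and 1.67% for Clu with Serping1, and 1.29% and 1.33% for Clu with Cd46.

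Between the subsets as a whole, 4 of the 6 genes were at least 2-fold higher in the CD45-negative library (40.9% of the 18379 genes measured were) and 1 was at least 2-fold lower (16.5% of genes were). Serping1 was at 32.5 against 0.203 CPM (160-fold, 96.9 to 286), Clu at 1407 against 19.8 CPM, Cd59a at 38.9 against 0.906 CPM, and Cd46 at 8.74 against 2.12 CPM (4.12-fold, 3.46 to 4.93). Cd55 was the gene lower in the CD45-negative library, at 1.57 against 3.79 CPM, a ratio of 0.416 (0.335 to 0.514). Cr1l was lower too, at 63.4 against 93.6 CPM, a ratio of 0.677 (0.653 to 0.702), which passed 2-fold under both other scalings of the libraries. Those scalings shifted every log2 ratio down, by 0.47 (TMM) and 0.52 (median of ratios), and turned no direction among the 6. Fewer cells of a type and less RNA in each cannot be told apart in these whole-library levels.

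**Figure D4:**
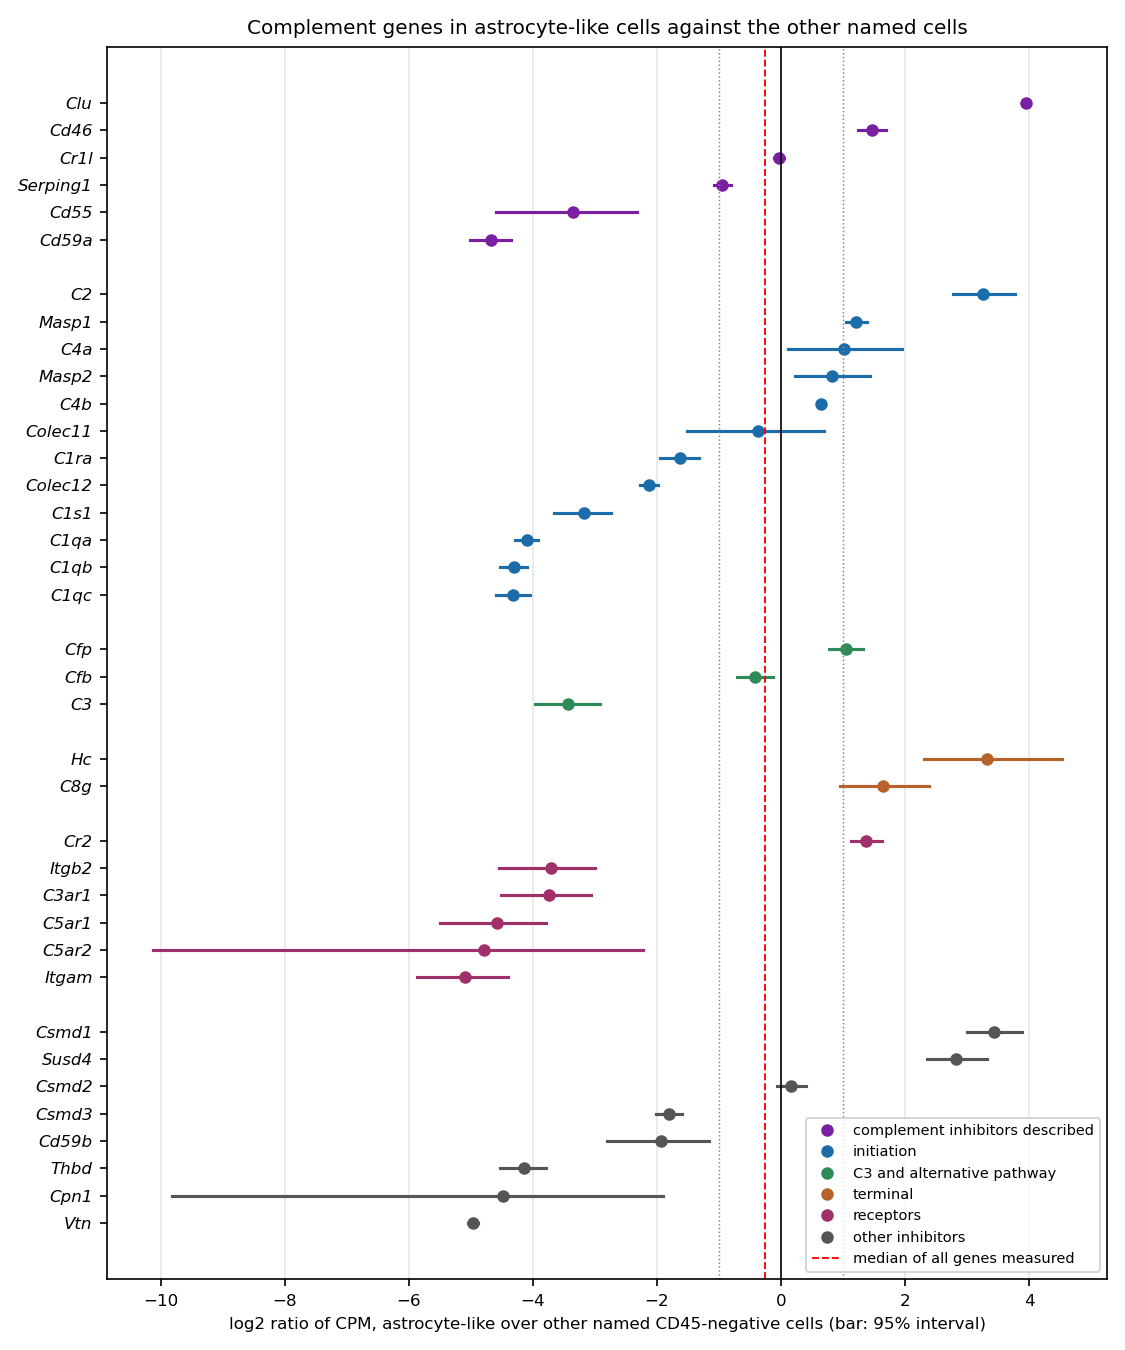
Log2 ratio of CPM, astrocyte-like over other named CD45-negative cells, for the 6 inhibitors and other complement genes with at least 20 UMIs, grouped by role; bars are 95% intervals, dotted lines 2-fold and the dashed red line the median of all genes (-0.25). Clu (3.95) and Cd46 (1.46) lie right of the 2-fold line, and Cd55 (-3.35) and Cd59a (-4.67) left of it.

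Beside the inhibitors, the rest of the complement system was measured in the same cells. Of 51 other complement genes listed by role, 50 were in the files and 32 had at least 20 UMIs in CD45-negative named cells, of which 9 were at least 2-fold higher in astrocyte-like cells (18.3% of all genes were), 18 at least 2-fold lower (30.5% were) and 5 between. Their median log2 ratio was -1.87, against -0.25 over all genes.

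Among the 12 initiation genes measured, 3 were higher, 6 lower and 3 between. C4b, a precursor of the C3-cleaving enzyme, was the one with the highest astrocyte-like level, at 249 CPM against 159 CPM in the other named cells (1.57-fold), and led in oligodendrocyte-like cells at 334 CPM. Masp1, a lectin pathway protease, was at 26.0 against 11.2 CPM (2.32-fold), with oligodendrocyte-like cells alone at 23.9 CPM. The C1q chains were genes of the microglia-like cells, with C1qa at 8328 CPM in the CD45-positive library, and stood at 8.80 CPM in astrocyte-like cells against 150 CPM in the other named cells, which include the microglia-like ones. Colec12, a scavenger receptor of the collectin family, was at 14.3 against 62.5 CPM and led in fibroblast-like cells.

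Of the C3 and alternative pathway genes, C3 itself was low in astrocyte-like cells, at 1.17 CPM (34 UMIs) against 12.6 CPM, and led in CD45-positive neutrophil-like cells at 186 CPM and choroid plexus epithelial-like cells at 162 CPM. Cfp, which encodes properdin, was at 9.74 against 4.70 CPM, with 312 CPM in CD45-positive monocyte-like cells, and Cfb was at 5.25 against 6.98 CPM. Transcripts for the attack complex itself were scarce: 2 of 7 terminal genes were measured, Hc, which encodes C5, at 2.11 against 0.210 CPM and C8g at 1.90 against 0.605 CPM, and both were higher in astrocyte-like cells.

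Of 6 receptor genes measured, 5 were lower in astrocyte-like cells, led by Itgam, a chain of complement receptor 3, at 0.587 against 19.9 CPM, C5ar1 at 0.449 against 10.7 CPM and C3ar1 at 0.622 against 8.33 CPM. Their leading class was microglia-like for these 3. Cr2, which encodes complement receptor 2, was the exception, at 12.2 against 4.68 CPM. It was not particular to astrocyte-like cells, since pericyte-like cells were at 12.5 CPM. Among 9 further inhibitors measured, Csmd1 (12.6 against 1.16 CPM, 10.8-fold) and Susd4 (7.39 against 1.05 CPM, 7.05-fold), both membrane proteins with complement control modules, were higher in astrocyte-like cells, 6 were lower and 1 lay between. The fluid-phase inhibitor Vtn, which encodes vitronectin, was lower, at 46.6 against 1460 CPM, and led in pericyte-like cells at 11788 CPM, a class that was also high in Serping1. Thbd, an endothelial surface gene, was at 2.21 against 39.1 CPM.

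Genes whose level followed each inhibitor across 14 classes were sought among 13986 genes by Pearson's r of log2(CPM + 1), given as a description, since the classes share libraries and depth. Closest to Cd59a were Sh3bgrl2 (0.94), Cavin2 (0.93) and Plvap (0.91). Serping1 was followed by Zic4 (0.99), Ddr2 (0.98) and Zic1 (0.98), and Clu by Gpr37l1 (0.96), Cnn3 (0.95) and Slc7a10 (0.94). Closest to Cd46 were Mkln1 (0.97), Mtcp1 (0.96) and Lrig2 (0.96), to Cr1l Mef2d (0.90), Mgat1 (0.89) and Trim56 (0.89), and to Cd55 Emb (0.82), Ifitm10 (0.77) and Vps26c (0.76).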

How the data were processed

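Single brain cells were profiled in a CD45-negative and a CD45-positive library. What the authors deposited are raw UMI counts by gene and barcode, from Cell Ranger 6.1.2 with build mm10, per the submitters' processing notes, and 10x v3 3' chemistry, per the labels' protocols; a 3' assay does not tell isoforms apart. The sources used here do not say how cells were called or whether doublets were removed. The 6 genes and all lists were chosen with earlier results of these data known.

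Barcodes with at least 500 UMIs, 200 genes and at most 20% mitochondrial UMIs were kept. Scrublet (scanpy 1.11.5, 0.8% expected per 1000 barcodes) called 876 CD45-negative (6.03%) and 177 CD45-positive barcodes (2.04%), which were removed; further doublets may remain. Both libraries were clustered together on 2000 variable genes, without complement genes, with 30 principal components, 15 neighbours and Leiden resolution 1 (leidenalg 0.10.2, Python 3.11.15). Mixed clusters were split at 0.5. A name needed at least 3 of its markers, each in at least 20% of cells, and a positive mean log2 fold; the numbers of this rule were set with clusters known. Clusters led by another class or within 0.5 of one stayed unnamed, as did shallow clusters without leading markers of their own. Deep clusters with markers of another class also stayed unnamed.

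Summed UMIs of a library or class became CPM, with exact Poisson intervals; ratios have exact conditional binomial intervals and shares Clopper-Pearson intervals, all at 95%. They assume independent UMIs, and UMIs of 1 cell are not. Genes with at least 20 UMIs on both sides together were measured; 2-fold was the size called. For shares each cell was thinned to 1000 UMIs, except where a share is given as without thinning. The code was tested on simulated counts. Positions are from GENCODE M21, which matched 32158 of 32285 gene IDs, and upstream sequences from RefSeq, which held 4 of the 6 genes. TMM factors came from edgeR 4.0.16. Beside the 6 genes, their near copies Cd55b and Cd59b and Aqp4, the text names up to 4 complement genes of each role by highest level in astrocyte-like cells or their leading class, the 3 genes most like each inhibitor and the genes leading astrocyte-like clusters. Susd4 was named after its value was seen, to complete a count of 2; 1 gene of the list is counted but not reported here, C2 and other genes counted are in the plot by role, and Ptprc, Gfap and Cldn5 serve as markers.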

Additional observations from a re-analysis of the deposited data

How the results depend on the processing

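Of 114 recomputed values, 83 stayed within their counting interval and 31 left it. The direction changed for Cr1l alone, whose astrocyte-like ratio had an interval on both sides of 0: it was positive in 4 alternatives, the 3 positive values below and 0.024 without the Ptx3-led cluster. The library ratios moved with scaling alone: log2 ratios of CD45-negative over CD45-positive were 4.95 (TMM) and 4.90 (median of ratios) for Cd59a, 5.68 and 5.63 for Clu, 1.57 and 1.52 for Cd46, -1.74 and -1.79 for Cd55, and -1.03 and -1.09 for Cr1l. The log2 ratio of astrocyte-like over other named CD45-negative cells was, for Clu, 3.87 with no cell filter, 4.05 with a stricter filter, 3.10 with doublets kept, 4.04 at the finer resolution of 2, 4.12 when the libraries were clustered separately and 3.72 as a mean over single cells. For Serping1 it was -1.14 with the stricter filter, -0.72 at resolution 2, -0.67 with separate clustering and -1.24 as a mean over single cells. For Cr1l it was 0.071, 0.078 and -0.33 under the last 3 of these, and for Cd46 0.87 as a mean over single cells. Chosen after seeing the data, unnamed cells among the others gave 4.07 for Clu and 0.10 for Cr1l, leaving out the Ptx3-led cluster gave 3.87 for Clu and -1.55 for Serping1, and leaving out the Aldoc-led cluster gave 3.90 for Clu. The cause was not tested. The share of astrocyte-like cells with a membrane inhibitor was 14.9% at 2000 UMIs and 32.9% unthinned. Cd59a stayed between -4.80 and -4.39 and Cd55, on 8 UMIs, between -4.56 and -2.81. Clu and Cd46 led in astrocyte-like, Cd59a and Cr1l in endothelial-like and Serping1 in fibroblast-like cells under all 9 groupings of cells; Cd55 led in ependymal-like cells at resolution 0.5 and with no cell filter, otherwise in fibroblast-like cells. No paired analysis was possible because each subset has 1 library and no test was made. With 1 library there was no replicate to leave out.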
